A study of Mus musculus with 6 samples.

Results

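Cadherins, claudins and connexins are families of mainly transmembrane proteins found at cell-cell junctions. Their response to BMP4 was followed here in C3H10T1/2 cells, a mouse mesenchymal line derived from embryos. These cells can form fat, cartilage and bone cells in culture. Every array feature with a single gene symbol made of Cdh or Cldn and digits, or of Gja, Gjb, Gjc or Gjd and digits, was taken. This gave 92 probe sets for 54 genes out of 45037 probe sets other than controls, namely 39 for 21 cadherins, 30 for 20 claudins and 23 for 13 connexins. The members were chosen by symbol alone, and a probe set is a group of short probes read as one signal. The BMP4 group held 3 samples of cells given 50 ng/ml BMP4 (bone morphogenetic protein 4, a secreted growth factor of the TGF-beta superfamily) while they proliferated. The control group held 3 samples of untreated cells grown to the same stage. Total RNA of both groups was taken past confluence, when cells touch on all sides, and 1 single-colour array was run per sample. No donor animals, transgenes or deletions are involved, and all samples come from 1 cell line. The labels do not say that the samples of a group came from separate cultures, so the p-values rest on a spread among arrays that may be only technical.

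Cadherins bind calcium and join the same or a related cadherin on the next cell, while their cytoplasmic tails hold catenins that connect to actin. N-cadherin (Cdh2) and cadherin 11, written Cdh11 below, are typical of mesenchymal cells, whereas E-cadherin (Cdh1) and P-cadherin (Cdh3) are typical of epithelia and VE-cadherin (Cdh5) of endothelium. Claudins form the strands of tight junctions, which seal the space between epithelial cells or let chosen ions pass. Connexins assemble into gap junction channels through which ions and small metabolites move between cells, and Gja1 is the connexin best known from fibroblasts, osteoblasts and heart muscle.

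Signals are linear array units whose 2% trimmed mean was 150 on each of the 6 arrays. Background was set at 29.1, the highest signal of 27 Bacillus control probe sets on any array. Of the 92 members 23 lay above background on all 6 arrays, and 46 lay at or under it on every array. The share above background on all arrays was 25% of the members and 46.7% of all probe sets, and the share at background throughout was 50.0% of the members and 32.8% of all probe sets. By gene, 12 of 54 had a probe set above background on all 6 arrays. These were 5 cadherins (Cdh2, Cdh6, Cdh11, Cdh13 and Cdh26), 5 claudins (Cldn10, Cldn12, Cldn14, Cldn15 and Cldn22) and 2 connexins (Gja1 and Gjc1). For 23 genes no probe set exceeded background on any array, and the other 19 did so on some arrays. The common limit came from a BMP4 array, and the limits of the single arrays were 23.5, 29.1 and 24.1 with BMP4 and 17.1, 16.6 and 21 in control cells. By the limit of each array itself, 8 of the 23 genes (Cdh1, Cdh17, Cldn3, Cldn6, Cldn7, Cldn8, Gjb6 and Gjc3) exceeded background on 1 or more arrays, and none of the 23 on all 6.

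With BMP4, 4 of these genes changed, 2 of them in each direction. Gja1 fell by 1.63-fold to 2.1-fold on 5 of 6 probe sets and Cdh11 fell by 1.98-fold on 1 of 2, while Cldn19 and 1 of 4 probe sets of Cdh10 rose from control signals under the limit. The test was limma on log2(signal + 16), two-sided, at an adjusted p of 0.05 (Benjamini-Hochberg, over the 27022 probe sets whose mean passed a filter on low signal). The filter kept 43 member probe sets of 29 genes. Of these 8 were called, 2 higher and 6 lower, against 9.12% of all probe sets tested, 4.20% higher and 4.91% lower. The 6 lower probe sets represent only 2 genes, so they are not 6 independent events. With each of the 29 genes read by its brightest tested set, only Gja1, Cdh10 and Cldn19 passed, and Cdh11 did not. Of all 12966 genes tested in this way 10.7% passed. Brightness was judged over all 6 arrays, and Cdh10 set 1425092_at was the brightest of its gene only through its BMP4 arrays. In control cells Cdh10 set 1433302_at was brighter, with a mean of 43.5 against 20.2, and it did not pass (log2 0.09, limma adjusted p = 0.897). In all 8 called probe sets the signals of the groups did not overlap. Of the 43, the BMP4 arrays lay wholly above the control arrays at 7 and wholly below at 8, against 15.0% and 13.2% of all probe sets tested (28.2% in either direction). The median log2 change of the 43 was 0.05, against 0.03 over all probe sets tested. A member with a low mean is dropped by such a filter, so these 43 do not stand for all 92. The control means of Cldn19 and Cdh10 set 1425092_at, 10.7 and 20.2, lay under the filter's signal of 23.5. Both higher sets thus passed the filter only through their BMP4 arrays, while sets as dim in both groups were dropped. Both were also called without the filter.

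**Figure D1:**
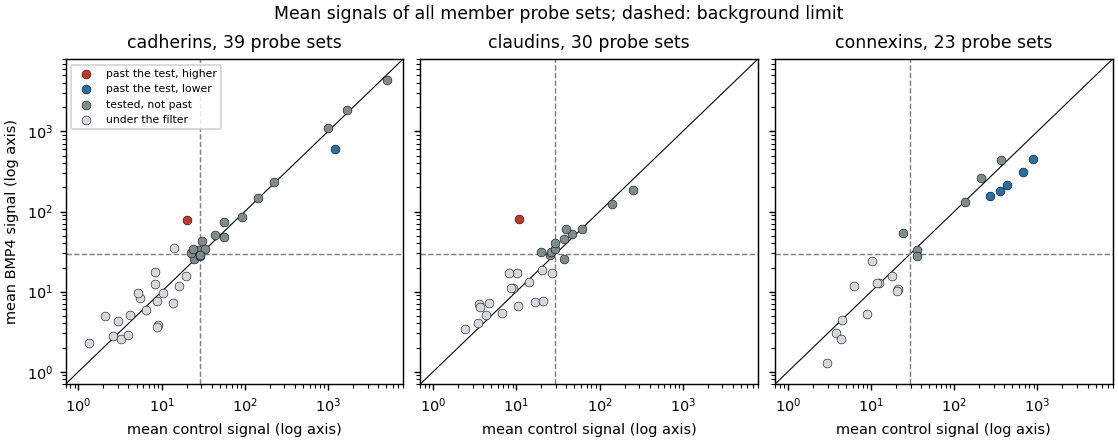
Mean BMP4 signal (vertical, log axis) against mean control signal (horizontal, log axis) for every cadherin, claudin and connexin probe set, with the line of equal signal and dashed lines at the common background limit of 29.1. The 5 lower connexin points all belong to Gja1, and the 2 higher points, Cdh10 and Cldn19, start left of the dashed line, under the common limit in control cells.

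The sequences upstream of the start of 3 of the 4 genes that changed are shown because these genes moved in opposite directions. The fourth, Cdh11, was not among the 38 of 54 member genes with an available sequence, so Gja1 is the only gene shown that fell. The sequences shown are the 250 bases before the outermost annotated start, taken from RefSeq on GRCm38.p6, written 5' to 3' on the gene's strand. Capitals mark any match to 4 motifs on either strand.
Gja1, GRCm38.p6 chr10:56377050-56377299, plus strand: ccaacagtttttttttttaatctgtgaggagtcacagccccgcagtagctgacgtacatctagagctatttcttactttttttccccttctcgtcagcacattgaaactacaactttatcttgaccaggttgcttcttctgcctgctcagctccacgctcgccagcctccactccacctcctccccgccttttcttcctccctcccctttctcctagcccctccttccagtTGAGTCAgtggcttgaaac
Cldn19, GRCm38.p6 chr4:119255191-119255440, plus strand: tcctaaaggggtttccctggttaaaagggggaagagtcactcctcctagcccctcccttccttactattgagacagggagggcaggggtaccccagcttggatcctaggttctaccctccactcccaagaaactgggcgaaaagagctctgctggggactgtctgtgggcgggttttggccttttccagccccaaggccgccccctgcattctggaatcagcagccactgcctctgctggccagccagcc
Cdh10, GRCm38.p6 chr15:18820079-18820328, plus strand: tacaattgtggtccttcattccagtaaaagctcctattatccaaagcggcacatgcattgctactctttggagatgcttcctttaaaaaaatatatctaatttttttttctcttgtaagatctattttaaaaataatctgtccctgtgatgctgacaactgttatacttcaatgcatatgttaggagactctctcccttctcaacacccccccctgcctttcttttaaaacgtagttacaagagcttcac
The motifs were CAGGTG, an E-box bound by Snail and Zeb repressors, GGCGCC, a GC-rich element bound by BMP Smads, TGAGTCA, bound by AP-1 factors, and the TATA sequence TATAAA. No motif overlapped another here. One match was found, TGAGTCA in Gja1, starting 19 bases before the start of the gene. Windows with that motif made up 4.46% of 32851 windows of the same length and 3 of the 38 windows of member genes. The E-box was present in 17.2% of all windows and in 5 of 38 member windows, GGCGCC in 9.59% and 3, and TATAAA in 12.4% and 4. A match describes the letters and does not show that a factor binds there.

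Gja1 had 6 probe sets, and 5 of them were lower with BMP4. The brightest, 1437992_x_at, had signals of 482.7, 402 and 491 with BMP4 and 863.4, 974.5 and 791.4 in control cells. Every BMP4 array was thus well below every control array. Its means were 459 ± 49.2 and 876 ± 92.2 (SD, n = 3 each), which is -0.91 ± 0.10 on the log2 scale (SE, limma adjusted p = 0.000157). The next, 1415800_at, had 293.8, 326.1 and 313.8 with BMP4 and 719.4, 694.6 and 599.9 in control cells. It fell by 1.07 on the log2 scale (95% interval -1.25 to -0.88, limma adjusted p = 1.97e-05), the largest fall among the members. The probe set 1415801_at was the tightest, with 169, 194.2 and 180.5 with BMP4 and 349.7, 362.8 and 360.8 in control cells, which is -0.92 ± 0.08 on the log2 scale (SE, limma adjusted p = 4.15e-05). The remaining lower probe sets, 1438945_x_at and 1438650_x_at, gave -0.96 (limma adjusted p = 0.000119) and -0.70 (limma adjusted p = 0.00525). The 5 lower probe sets therefore lay between 1.63-fold and 2.1-fold down.

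The sixth Gja1 probe set, 1438973_x_at, did not follow. It had 146.3, 131.1 and 116.3 with BMP4 and 149.7, 131.5 and 127.5 in control cells, so that the groups overlapped, with a log2 change of -0.05 (95% interval -0.31 to 0.21, limma adjusted p = 0.848).  Taking log2(signal + 16) of another Gja1 probe set minus that of 1438973_x_at on each array, the difference for 1415800_at was 0.93 to 1.32 with BMP4 and 2.10 to 2.27 in control cells. All 5 such differences were smaller with BMP4 on every array, by 0.65 to 1.02 (exact two-sided permutation p = 0.1 for each, the smallest that 3 against 3 arrays allows, and 0.244 after adjustment over 22 pairs of probe sets of 3 genes). In the array's naming the suffix x marks sets that share probes with other transcripts. It is carried by 4 of the 6 Gja1 sets, among them 3 of the 5 that fell as well as the one that did not, and its part in the result was not tested.

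**Figure D2:**
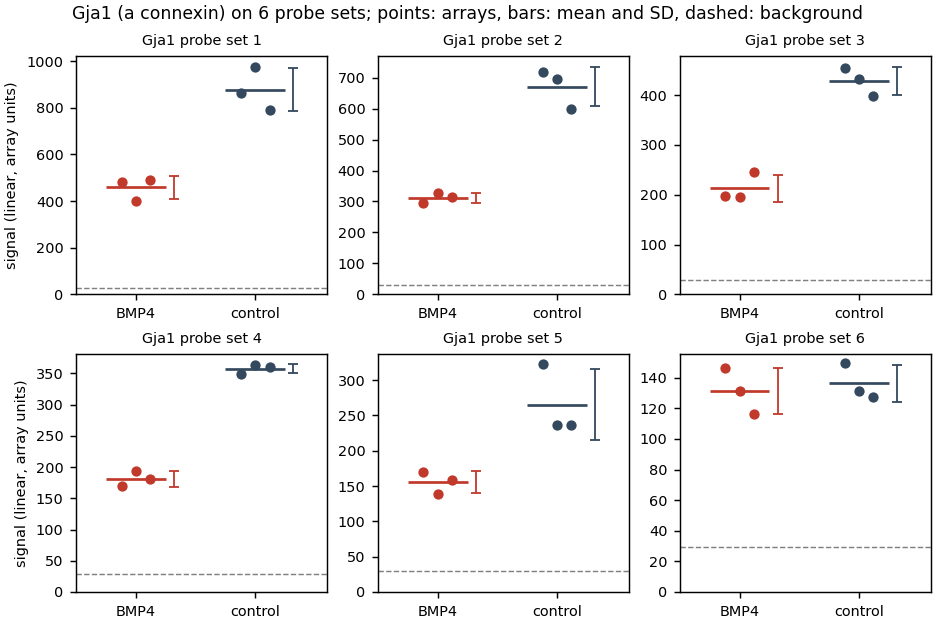
Signal (linear array units) of Gja1 on each of its 6 probe sets, BMP4 arrays left and control arrays right, with points for arrays, horizontal bars for means, error bars for SD (n = 3) and a dashed line at background. On 5 probe sets every BMP4 array lies below every control array, while on the last the groups overlap, with means of 131 and 136.

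Of the other 12 connexins only Gjc1, Gjb5, Gjb2 and Gja4 were tested, and none of these passed. The rest were dropped by the filter. Of the 11 connexin probe sets tested 0 were higher (limma, with 3 at an unadjusted p under 0.05). Gjc1, a gamma connexin known from smooth muscle and embryonic heart, was above background on all arrays and lay on the other side from Gja1. Its brighter probe set had 427.3, 445.3 and 440.3 with BMP4 and 414.7, 354.1 and 333.2 in control cells, a log2 value of 0.25 (95% interval 0.06 to 0.44, limma adjusted p = 0.108). The second had 282.6, 259.2 and 247.2 with BMP4 and 209.2, 195.6 and 230.9 in control cells, a log2 value of 0.29 (0.09 to 0.49, limma adjusted p = 0.0766). On both probe sets every BMP4 array was above every control array, but neither reached the threshold. Gjb5, a beta connexin known from skin and placenta, had 45.9, 47.4 and 69.3 with BMP4 and 34.1, 25.3 and 12.9 in control cells. All BMP4 arrays and 1 control array were above background, and the log2 value of 0.83 (95% interval 0.31 to 1.35) just missed the test (limma adjusted p = 0.0521, 0.0448 to 0.161 over the alternative settings).

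Gjb2, a beta connexin of epithelia and the inner ear, scattered around background, with 46.9, 24.5 and 11.6 with BMP4 and 39, 50.4 and 16.2 in control cells (log2 -0.25, 95% interval -0.98 to 0.49, limma adjusted p = 0.715). Gja4, an endothelial connexin, exceeded background on 2 arrays of each group (log2 -0.11, limma adjusted p = 0.85). Gja3, a lens connexin, and Gjd2, a neuronal one, did so on 1 BMP4 array each and were dropped by the filter. Gja5, Gja10, Gjb1, Gjb6, Gjc3 and Gjd4 were at background on every array of both groups. The 10 connexin probe sets at background throughout had signals of 0.9 to 23.5 with BMP4 and 0.5 to 22.8 in control cells.

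Cdh11, which is expressed in mesenchyme and osteoblasts, was read by 2 probe sets that differed in their response. The dimmer one, 1435120_at, had 609, 639.9 and 585.7 with BMP4 and 1241.6, 1248.7 and 1195 in control cells, with narrow groups far apart. It fell by 0.99 on the log2 scale (95% interval -1.13 to -0.85, limma adjusted p = 5.49e-06), with the smallest p among the members. The brighter one, 1450757_at, had 4448.5, 4746.2 and 4001.1 with BMP4 and 4682.3, 5357.2 and 5222.5 in control cells. There the groups overlapped by 1 array, and the log2 value of -0.21 (95% interval -0.42 to -0.01) did not pass (limma adjusted p = 0.21). It passed with quantile normalization, at -0.30 (limma adjusted p = 0.00205, against 0.00205 to 0.468 over all alternative settings). On the log2 scale the brighter probe set exceeded the dimmer by 2.84, 2.86 and 2.74 with BMP4 and by 1.90, 2.09 and 2.11 in control cells. That difference was larger on every BMP4 array, by 0.78 (exact two-sided permutation p = 0.1, the smallest possible with 3 against 3, and 0.244 after adjustment over 22 pairs). The size of the Cdh11 fall thus depends on the probe set, from 1.16-fold to 1.98-fold, and the reason was not tested.

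Cdh10, a type II cadherin known from brain, was higher on 1 of its 4 probe sets. On 1425092_at it had 63.3, 63.8 and 104.7 with BMP4 and 13.4, 23.6 and 23.5 in control cells. All BMP4 arrays were above the common limit and all control arrays under it, but 2 of the 3 control arrays were above the limit given by their own bacterial controls. Set against the common limit, the signal was at least 2.58-fold higher with BMP4, and the means were 77.3 ± 23.8 and 20.2 ± 5.86 (SD, n = 3 each; log2 1.35 ± 0.22, SE, limma adjusted p = 0.00256). Such bounds compare the mean log2 signal of the bright group with the background limit on each array of the dim group. The other Cdh10 probe sets did not pass. 1433302_at had 86.2, 36.5 and 28.9 with BMP4 and 35.8, 35.6 and 59.1 in control cells (log2 0.09, limma adjusted p = 0.897). 1460538_at gave 0.26 (limma adjusted p = 0.498), with 2 BMP4 arrays and 0 control arrays above background, and 1446399_at was at background throughout.

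Cdh2 was above background on every array of both groups. Its brighter probe set had 1911.9, 1905.8 and 1803.8 with BMP4 and 1652.7, 1776.3 and 1619.2 in control cells, and the other had 1153.6, 1096.2 and 1104.1 with BMP4 and 968.9, 996.9 and 1033.2 in control cells. In both, every BMP4 array was above every control array, yet the differences were small and not past the test, with log2 values of 0.15 (95% interval 0.00 to 0.31, limma adjusted p = 0.211) and 0.16 (0.02 to 0.30, limma adjusted p = 0.162). Cdh13, a cadherin anchored by a lipid and lacking a cytoplasmic tail, gave 0.05, 0.03 and -0.18 on its 3 probe sets above background (limma adjusted p = 0.854, 0.914 and 0.553), with a widest interval of -0.52 to 0.17, and both of its brighter sets had the other sign after median centring. Cdh6, a type II cadherin known from kidney and neural crest, gave 0.29 (95% interval -0.10 to 0.69, limma adjusted p = 0.374) with 91, 54.5 and 74.4 with BMP4 and 63.3, 48.1 and 56.7 in control cells. Cdh26 had 86.2 ± 12.9 with BMP4 and 91.6 ± 18.1 in control cells (SD, n = 3 each; log2 -0.07, limma adjusted p = 0.85).

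Cdh1, the cadherin of epithelia, did not exceed the common limit on any array but exceeded the limit of the array itself on 2 of 3 BMP4 and 3 of 3 control arrays, with 24.6, 22.9 and 28.5 with BMP4 and 27.7, 19.1 and 26.3 in control cells (log2 0.04, -0.06 after median centring, 95% interval -0.39 to 0.47, limma adjusted p = 0.935). Cdh5, the endothelial cadherin, had 44.7, 24.1 and 33.6 with BMP4 and 34.6, 45.5 and 19.9 in control cells, with 2 arrays of each group above background (log2 0.04, limma adjusted p = 0.949). In the gene table Cdh5 and Cdh8 are the coding genes next to Cdh11 on either side, and Cdh8 had no signal above background. Cdh9, a neighbour of Cdh10, was at background as well, as were Cdh3, Cdh16, Cdh17, Cdh18, Cdh19 and Cdh20. Cdh22 and Cdh23, of which Cdh23 belongs to the tip links of hair cells, were above background on all BMP4 arrays and on 1 and 2 control arrays (log2 0.17 and 0.36, limma adjusted p = 0.648 and 0.337). Cdh4, Cdh7 and Cdh15, the last known from muscle precursors, exceeded background on 2 or 3 of the 6 arrays. The 19 cadherin probe sets at background throughout had signals of 0.8 to 28.5 with BMP4 and 0.9 to 27.7 in control cells.

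**Figure D3:**
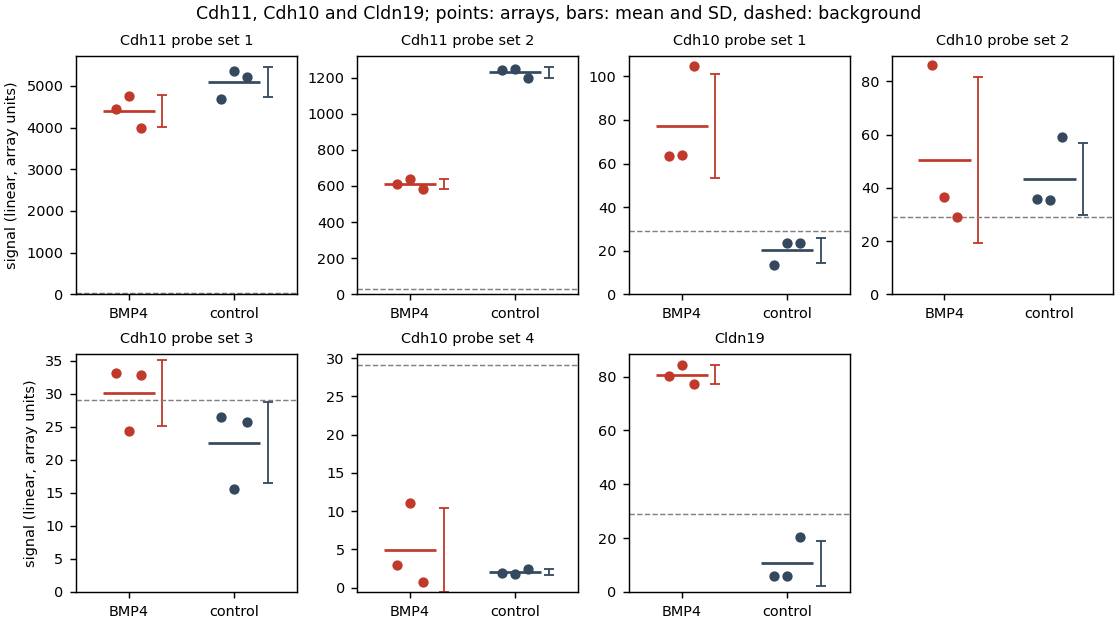
Signal (linear array units) of Cdh11 on 2 probe sets, Cdh10 on 4 and Cldn19 on 1, BMP4 arrays left and control arrays right, with points for arrays, horizontal bars for means, error bars for SD (n = 3) and a dashed line at background. The groups separate widely on the second Cdh11 set, the first Cdh10 set and Cldn19, and the groups overlap on the second Cdh10 set, which is above the line on 5 of 6 arrays, while the third is near the line and the fourth under it.

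Cldn19, a claudin known from kidney tubules, retina and myelinating Schwann cells, was the only claudin past the test. It had 80.1, 84.4 and 77.4 with BMP4 and 5.8, 5.8 and 20.4 in control cells, so all BMP4 arrays were above background and all control arrays under it, also by the limit of each array itself. Against the background limit it was at least 2.77-fold higher with BMP4, with means of 80.6 ± 3.53 and 10.7 ± 8.43 (SD, n = 3 each; log2 1.90 ± 0.23, SE, limma adjusted p = 0.000332). Of 7 genes listed as markers of myelinating glia 5 were read, of which 3 were tested and 0 passed (limma, with Mbp and Erbb3 at an unadjusted p under 0.05). Their summed signal was 201 to 251 with BMP4 and 152 to 199 in control cells, Mog was at background on every array, and their part in the Cldn19 result was not tested. Mbp gave a log2 value of 0.43 (limma adjusted p = 0.147). Of the coding genes on either side of Cldn19, Ybx1 was higher (log2 0.32, limma adjusted p = 0.039) and P3h1 gave 0.25 (limma adjusted p = 0.0533).

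No claudin was lower by the test (limma, with 1 probe set at an unadjusted p under 0.05). That was the brighter set of Cldn12, a claudin with a broad tissue range, which had 172, 147.4 and 229.6 with BMP4 and 215.2, 290.8 and 249.5 in control cells (log2 -0.44, 95% interval -0.77 to -0.11, limma adjusted p = 0.103, 0.0219 to 0.307 over the alternative settings). Its second probe set gave -0.19 (limma adjusted p = 0.402). Cldn1, the claudin of the skin barrier, had 24.8, 25.2 and 27.1 with BMP4 and 41.2, 39.3 and 32.4 in control cells on its brightest set. All control arrays were above background and all BMP4 arrays under it (2 of these were above their own limit), and the log2 value of -0.36 was not past the test (95% interval -0.75 to 0.03, limma adjusted p = 0.263), and its 3 other sets were at background. Cldn15, a pore-forming claudin of the intestine, had 74, 61.2 and 47.8 with BMP4 and 37.7, 51.2 and 29.7 in control cells (log2 0.48, limma adjusted p = 0.186). Cldn10, Cldn14 and Cldn22 were above background on every array, with log2 values of 0.20, 0.10 and -0.04 (limma adjusted p = 0.534, 0.749 and 0.911).

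Cldn5, the claudin of blood vessels, had 67.4, 25.9 and 27.8 with BMP4 and 42.3, 12.6 and 33.6 in control cells, with 1 BMP4 array and 2 control arrays above background (log2 0.30, limma adjusted p = 0.637). Cldn2, Cldn4, Cldn13 and Cldn18 also exceeded background on some arrays only, with no call. Cldn3, Cldn6, Cldn7, Cldn8, Cldn9, Cldn11, Cldn16 and Cldn23 were at background on every array. The 17 claudin probe sets at background throughout had signals of 0.4 to 27.4 with BMP4 and 1.3 to 27.9 in control cells. For such members a difference could not be measured, which is not the same as its absence.

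**Figure D4:**
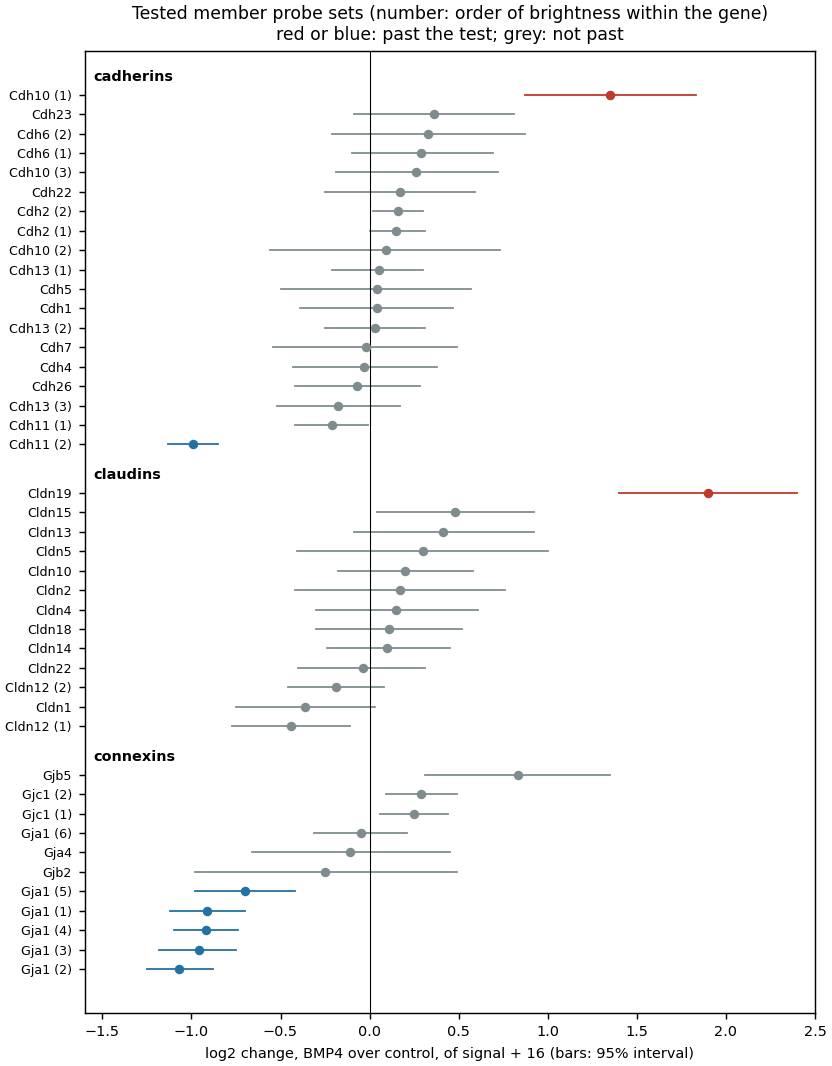
Log2 change, BMP4 over control, of signal + 16 (horizontal) for the 43 tested probe sets by family, with bars for the 95% interval from limma. Cdh10 and Cldn19 stand to the right at 1.35 and 1.90, Cdh11 and 5 Gja1 sets stand to the left at -0.70 to -1.07, and the other 35 were not past the test.

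All 8 calls held in each of the 14 alternative settings that kept the probe set, and Cdh10 and Cldn19 were removed only by the filter at the 60th percentile. Over these settings Cldn19 ranged from 0.96 to 2.67 and Cdh10 from 0.74 to 1.74 on the log2 scale, with the pseudocount moving both most. The Gja1 set 1415800_at ranged from -1.16 to -0.97 and the Cdh11 set 1435120_at from -1.08 to -0.94.

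RNAs of proteins that work with the members were examined next. Of 77 genes on 7 lists of junction partners 72 were read by the array and 50 were tested, each by its brightest probe set, and 4 rose and 5 fell, against 5.03% higher and 5.67% lower of all genes tested in this way. After centring of the arrays on their medians 0 were higher and 6 lower, so the 4 rises given below (Ctnnd1, Jam2, Fat1 and Snai2) were lost under that scaling. Among 10 tested catenins and adherens junction partners, Ctnnd1, the catenin that binds the cadherin tail near the membrane, rose to 1278 ± 76 with BMP4, against 969 ± 64 in control cells (SD, n = 3 each; log2 0.39, limma adjusted p = 0.00679). Afdn, an actin adaptor of nectins, fell to 198 ± 13.3 with BMP4, against 262 ± 0.917 in control cells (SD, n = 3 each; log2 -0.38, limma adjusted p = 0.0158). Vinculin (Vcl), which links catenins to actin, was lower on its dimmer set (log2 -0.41, limma adjusted p = 0.00762) and gave -0.22 on its brighter one (limma adjusted p = 0.172). The beta-catenin gene Ctnnb1 gave 0.21 (limma adjusted p = 0.217). The list median was 0.05.

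Of 12 tested tight junction partners 1 rose, the adhesion molecule Jam2 (log2 0.52, limma adjusted p = 0.0259), and 0 fell. Jam2 passed in 7 of 14 alternatives, and its other 2 tested sets gave 0.12 (limma adjusted p = 0.554) and 0.38 (limma adjusted p = 0.0626). The scaffold Tjp1, which binds both claudins and Gja1, gave -0.25 (limma adjusted p = 0.0597), and occludin (Ocln) was at background on every array. Of 5 nectins and Cadm proteins Nectin3, which binds Afdn, fell (log2 -0.33 on each of its 2 brightest sets, limma adjusted p = 0.0224 and 0.0473). Of 5 large cadherins Fat1 rose (log2 0.43, limma adjusted p = 0.0128) and Fat4, a receptor for Dachsous cadherins, fell (log2 -0.42, limma adjusted p = 0.028). None of 4 desmosome genes or 2 pannexins passed (limma, with 0 at an unadjusted p under 0.05 in either list), the smallest p belonging to Evpl (log2 0.53, limma adjusted p = 0.394) and Panx1 (log2 0.37, limma adjusted p = 0.301).

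Regulators known to repress or drive epithelial junction genes were split. Snai2, a repressor of Cdh1, rose to 5426 ± 607 with BMP4, against 3826 ± 471 in control cells (SD, n = 3 each; log2 0.50, limma adjusted p = 0.0179). Zeb2, a repressor of the same gene, fell to 223 ± 5.68 with BMP4, against 323 ± 21.5 in control cells (SD, n = 3 each; log2 -0.50, limma adjusted p = 0.0025). The mesenchymal factor Twist1 fell by 0.48 on the log2 scale (limma adjusted p = 0.044). Of the 12 tested, Snai1 gave 0.25 (limma adjusted p = 0.0683) and Zeb1 -0.19 (limma adjusted p = 0.264). Among factors that act in epithelia, Grhl1, Grhl3 and Esrp1 were at background on every array and were not tested. Elf3, Grhl2 and Esrp2 were above background on all 6 arrays by their brightest sets. Their log2 values were 0.10, 0.03 and -0.14 (limma adjusted p = 0.752, 0.935 and 0.631). Unlike the calls of the members, most partner calls depended on the settings. Without the intensity trend 1 of the 9 passed, Zeb2, whose brightest set passed in all 14 alternatives. With 1 array left out 4 to 6 partner genes were called, with 5 without BMP4 replicate 2 and 4 without control replicate 2.

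**Figure D5:**
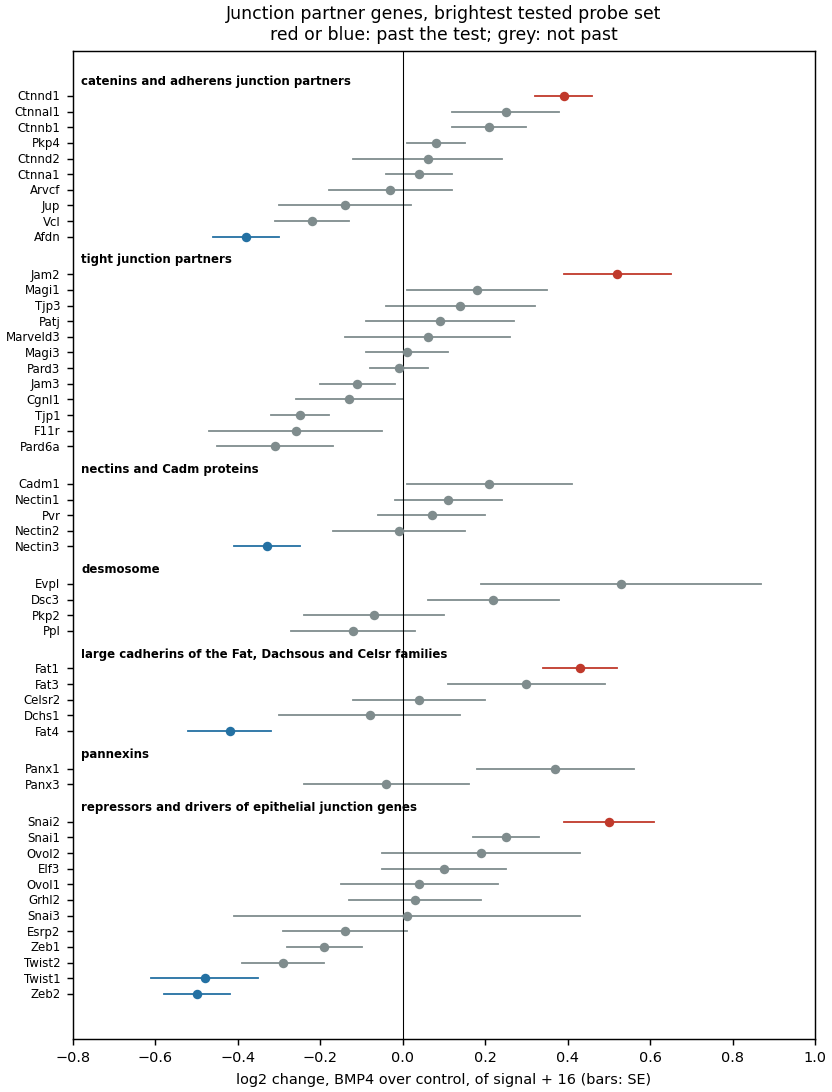
Log2 change, BMP4 over control, of signal + 16 (horizontal) for the 50 tested junction partner genes in 7 lists, each by its brightest tested probe set, with bars for SE from limma. The 4 rises (Ctnnd1, Jam2, Fat1 and Snai2) and 5 falls (Afdn, Nectin3, Fat4, Zeb2 and Twist1) all stay within 0.52 of 0.

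The mesenchymal identity given by the labels was checked against 8 marker genes, all above background on all 6 arrays, of which 0 passed the test by their brightest set (limma, with Prrx1 at an unadjusted p under 0.05, log2 -0.18, limma adjusted p = 0.209). Dimmer sets of Prrx1 (log2 -0.49, limma adjusted p = 0.0014) and of the collagen gene Col3a1 (log2 -0.45, limma adjusted p = 0.0352) were lower, and with quantile normalization 2 of the 8 genes were lower by their brightest set. Of 10 epithelial markers read, 3 (Epcam, Krt5 and Krt8) were above background on all arrays (Epcam on 1 of 2 sets, Krt8 on its brightest only). Krt7, Krt18, Rab25 and St14 were at background throughout. None of 5 tested passed (limma, with 0 at an unadjusted p under 0.05; smallest p for Krt14, log2 0.35, limma adjusted p = 0.37), and the summed signal was 455 to 684 with BMP4 and 552 to 654 in control cells. Of 10 endothelial markers, 3 (Tek, Egfl7 and Robo4) were above background on all 6 arrays by their brightest sets. Pecam1, Tie1, Vwf and Erg were at background throughout. The summed signal of the list was 270 to 412 with BMP4 and 380 to 432 in control cells. Of 5 tested only Tek passed, and it fell (log2 -0.69, limma adjusted p = 0.0167). The Tek fall passed in 11 of 14 alternatives and was lost only in fits that dropped an array. Egfl7 gave -0.23 (limma adjusted p = 0.272) and Robo4 0.08 (limma adjusted p = 0.848). In such bulk RNA, fewer cells of a type and less RNA per cell cannot be told apart. The share of all probe sets above background was 56% to 59% with BMP4 and 54.4% to 55.7% in control cells, and its part in the dim rises of Cdh10 and Cldn19 was not tested.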

How the data were processed

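RNA of 6 samples, 3 with BMP4 and 3 without, was read on 1-colour arrays of biotin-labelled RNA. The authors made the deposited linear signal intensities with GCOS 1.3, per the submitters' processing notes. How signals were scaled and corrected for background is not stated in those notes, and the equal 2% trimmed means are what a global scaling gives, which would hide a shift shared by most transcripts. Groups came from the sample titles. Precision is limited by 3 arrays per group.

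After removal of 64 control probe sets, 16 was added to each signal, log2 taken, and probe sets with a mean above the 40th percentile (a signal of 23.5) kept. Two-sided tests used limma 3.58.1 in R 4.3.3 (lmFit, eBayes with intensity trend, Benjamini-Hochberg over 27022 probe sets) and were tested on simulated data. Probe differences within a gene used exact permutation (scipy 1.17.1). Fold changes on log2(signal + 16) understate those of dim genes. Symbols come from the platform annotation, and all 54 genes matched the GRCm38.p6 gene table. The members, the lists and the tests were chosen with earlier results of these data known. Text names every member past the test or above background on all arrays of a group, 10 members fixed by name, and of each list up to 3 called genes or the one with the smallest p, and further genes after their values were seen (Ctnnb1, Vcl, Tjp1, Col3a1, the neighbours of members, Ocln, Snai1, Zeb1, Erbb3, the remaining members, and list genes at or above background). Same-numbered arrays of the 2 groups did not deviate together (r from -0.072 to 0.01), so numbers were not used as pairs. Alternatives were other pseudocounts, filters and scalings, no trend, a replicate block and leaving out each array.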

Additional observations from a re-analysis of the deposited data

How the results depend on the processing

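The 8 calls of members were all shared with the calls under 13 of the 14 alternatives, and 6 of 8 with the filter at the 60th percentile, which tested 19 member probe sets and left out Cdh10 and Cldn19, so that 0 members, 0 cadherins and 0 claudins were higher. Quantile normalization gave 2 lower cadherin probe sets, adding the brighter Cdh11 set, and a pseudocount of 64 gave 1 higher connexin, Gjb5. With 1 array left out, 2 to 4 member probe sets were higher (4 without control replicate 1, which added Gjb5 and Gjc1), 0 to 2 connexin sets were higher, and 0 to 1 claudin sets were lower (Cldn12 without BMP4 replicate 3). Called junction partner genes numbered 9, against 5 without the filter, 1 without the trend and 4 to 6 with 1 array left out. With the replicate block 2 members were higher and 6 lower, and 8 partner genes were called. The background limit of each array itself put 27 in place of 23 member probe sets above background on every array. Centring arrays on their medians moved the median log2 change of all probe sets to -0.07, against 0.03, changed no call of a member, and left 0 higher and 6 lower junction partners, against 4 and 5. Signs were followed only for member sets above background on all arrays of a group and the brightest set of 10 genes fixed by name. Of the uncalled probe sets among these, 10 had the other sign under some alternative, each with a limma adjusted p of 0.566 or more there. After median centring this held for Cdh1 (-0.06), Cdh10 set 1433302_at (-0.01), Cdh13 sets 1423551_at (-0.06) and 1434115_at (-0.05) and Cdh5 (-0.06), and after quantile normalization for Cdh1 (-0.04) and Cdh5 (-0.06). With 1 array left out, log2 values ran from -0.06 to 0.10 for Cdh1, -0.27 to 0.32 for Cdh10 set 1433302_at, -0.08 to 0.11 and -0.06 to 0.11 for the Cdh13 sets, -0.19 to 0.05 for Cdh26, -0.17 to 0.21 for Cdh5, -0.12 to 0.08 for Cldn22, -0.02 to 0.51 for Cldn5, -0.12 to 0.02 for the sixth Gja1 set and -0.55 to 0.04 for Gjb2. Signals near background limit what can be seen for 46 of the 92 probe sets. Where a call changed, the cause was not tested, except where a probe set was left out by a filter.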
